A study of Homo sapiens with 3 samples.

Results

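TXNIP, its close relative ARRDC4 and 8 genes that carry glucose into the cell or commit it to glycolysis and lactate were followed on 3 expression arrays of the human lung adenocarcinoma line A549: a control, cordycepin and cordyceps. The glucose transporters SLC2A1 and SLC2A3, the hexokinases HK1 and HK2, the regulatory kinases PFKFB3 and PFKFB4, the lactate dehydrogenase subunit LDHA and the pyruvate dehydrogenase kinase PDK1 complete the set of 10 genes, out of 22435 genes with a name on the array. The set was chosen from earlier results of these same arrays, in which the ratio of TXNIP was already known, so every ratio of these genes to the control array is given as a description. Their 14 probes, out of 58201, were found by the transcript accession that each probe carries, and all of them are reported.

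The control culture received 0.1% DMSO, the second culture 60 μg/mL cordycepin, an adenosine analog lacking the hydroxyl group at the ribose 3′ carbon, and the third 100 μg/mL cordyceps, each for 48 h. Cordyceps is known from the labels alone, which do not say how the preparation was made. Whether the treated cultures also held DMSO is not given in the sources used here. Per the labels all cultures shared a medium of DMEM, fetal bovine serum (10%) and penicillin-streptomycin (1%), to which zinc sulfate (16.7 μM), troglitazone (10 μM) and nicotinamide (10 mM) had been added, whereas the methods of the study list DMEM, serum and antibiotics without those last additions. Troglitazone is a PPARγ agonist of the thiazolidinedione class. RNA from each culture was labeled with Cy3 and hybridized to 1 Agilent array per condition (n = 1), so no test between conditions was possible, no replicate error exists and no p-value is given. The cordycepin and cordyceps ratios share the one control array, and the doses of the treatments differ, so their values stand side by side and were not compared with each other. In RNA pooled from a whole culture, fewer cells expressing a gene and less RNA of it per cell cannot be told apart.

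TXNIP binds thioredoxin and promotes removal of the transporters SLC2A1 and SLC2A4 from the cell surface, which restrains glucose uptake, and ARRDC4 is an α-arrestin with a similar effect on uptake. Both genes are induced when glucose is plentiful, through the partner transcription factors MLXIP (MondoA) and MLX, which bind paired E-box-like sequences called carbohydrate response elements. Inside the cell, hexokinases trap glucose as glucose 6-phosphate, PFKFB enzymes set the level of fructose 2,6-bisphosphate, the activator of phosphofructokinase, and LDHA and PDK1 favor conversion of pyruvate to lactate over its oxidation in mitochondria.

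The promoters of TXNIP, ARRDC4 and LDHA are shown because the first pair are the textbook MLXIP and MLX targets and LDHA is a textbook target of factors that bind E-boxes. Each window is the 250 bases before a transcription start, read 5′ to 3′ in the direction of transcription, from RefSeq on GRCh38.p14. Capitals mark every match to CACGNG on either strand. TXNIP lies on the minus strand of chromosome 1 (chr1:145996580-145996829), ARRDC4 on the plus strand of chromosome 15 (chr15:97960453-97960702) and LDHA on the plus strand of chromosome 11 (chr11:18394313-18394562).
TXNIP: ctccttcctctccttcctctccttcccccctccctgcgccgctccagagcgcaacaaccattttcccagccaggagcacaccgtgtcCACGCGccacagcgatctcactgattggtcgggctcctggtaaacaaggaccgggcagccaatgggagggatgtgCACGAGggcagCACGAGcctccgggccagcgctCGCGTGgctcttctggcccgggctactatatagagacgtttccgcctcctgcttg
ARRDC4: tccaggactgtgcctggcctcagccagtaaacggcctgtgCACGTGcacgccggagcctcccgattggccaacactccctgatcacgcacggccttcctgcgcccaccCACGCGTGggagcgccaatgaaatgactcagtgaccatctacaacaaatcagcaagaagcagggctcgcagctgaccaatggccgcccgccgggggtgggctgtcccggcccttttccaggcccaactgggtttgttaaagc
LDHA: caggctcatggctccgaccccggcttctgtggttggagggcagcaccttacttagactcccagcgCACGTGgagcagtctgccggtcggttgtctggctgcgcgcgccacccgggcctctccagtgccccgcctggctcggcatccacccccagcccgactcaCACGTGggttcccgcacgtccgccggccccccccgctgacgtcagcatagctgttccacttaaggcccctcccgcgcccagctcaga
In the TXNIP window, a pair of CACGAG matches on the printed strand, from 88 to 83 and from 77 to 72 bases before the start, was separated by 5 bases. A pair of CACGNG with that spacing, on the same strand, was found on either strand in 16 of 35116 windows of that length (0.0456%), whereas the single CACGNG was found in 26.7% of them. TXNIP had 2 further single matches, CACGCG from 163 to 158 and, read on the opposite strand, from 55 to 50 bases before the start.

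The ARRDC4 window held 1 CACGTG from 210 to 205 bases before the start, the full E-box, which is contained in CACGNG and was present in 6.34% of all windows. It also held overlapping matches of CACGNG on opposite strands from 142 to 137 and from 140 to 135 bases before the start, and no spaced pair. In the LDHA window, CACGTG lay from 185 to 180 and from 87 to 82 bases before the start. The shorter ACGTG, the core of the hypoxia response element, lies inside CACGTG and was present in 18.5% of windows, and LDHA had 1 further match to it outside an E-box, on the opposite strand from 73 to 69 bases before the start. CCAAT was found at 2 places in the TXNIP window and 3 in the ARRDC4 window, against 32% of all windows with at least 1. RefSeq windows were matched for 9 of the 10 genes, over 20 start sites, all but SLC2A3. Further start sites with CACGTG were the second windows of HK2 (2 places) and PFKFB3 (1 place). These matches are letters in a window and say nothing about binding.

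Signal here is the scanner software's background-subtracted spot brightness, printed with that software's own error for the spot, and levels were scaled by subtracting the 75th percentile of log2 signal of each array. Each of these 14 probes was printed as 1 spot. The 3 arrays detected 28494, 27666 and 24505 probes in the order control, cordycepin, cordyceps, that is, at least 50% of a probe's spots were well above background. All 5 epithelial markers examined (KRT7, KRT8, KRT18, EPCAM and CDH1) were detected on every array, at signals of at least 323, while 1 leukocyte marker, PTPRC, and 1 fibroblast marker, COL1A1, were detected, at signals of at most 99.5 and 337. Of 3 endothelial markers, 2, 2 and 0 were detected, at signals up to 61.3. A measure of technical spread came from genes with at least 2 measured probes: the robust standard deviation of the log2 ratio of 1 probe was 0.27 for cordycepin (3675 genes) and 0.21 for cordyceps (3418 genes). The plain standard deviations were 0.37 and 0.35. Within the probe spread means at most 1 robust standard deviation from control, a limit that unchanged genes can also pass. Variation between cultures or arrays is not part of it. A gene is represented by its brightest probe, with the second probe given wherever there is one, and a difference was called at 2-fold. The corner of the array with rows above 240 of 384 and columns above 82 of 164, 18.6% of probes, is marked throughout. The reason is that on the cordyceps array 15.9% of its probes with a ratio were at least 2-fold higher than control, against 3.06% of the others. Shares past 2-fold are throughout of probes or named genes with a ratio, measured or as a bound. Those are 15762 named genes with cordycepin and 14902 with cordyceps. Medians over all named genes are of those measured on both arrays.

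On the cordycepin array 3 of the 10 genes stood at least 2-fold below control, TXNIP, ARRDC4 and PFKFB3, against 3.61% of all named genes, and 0 were at least 2-fold higher, against 6.01%. With cordyceps, 2 were lower, TXNIP and ARRDC4, against 3.3% of named genes, and 0 were higher, against 4.39%. Since the genes were chosen with these ratios known, nothing is read from those shares. The median log2 ratio over the 10 genes was -0.43 with cordycepin, where that of all named genes was -0.05, and -0.22 with cordyceps, where that of all named genes was -0.11. The ratio lay below 0 for 8 of the 10 genes with cordycepin and for 7 with cordyceps. All of the called genes had their brightest probe in the corner. Of the 8 genes with a measured probe outside it, 0 were called in either direction with cordycepin, with 3.55% of named genes lower and 6.16% higher there, and 0 with cordyceps, with 3.3% lower and 2.79% higher. The median log2 ratio of those 8 genes was -0.12 and -0.03, respectively.

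**Figure D1:**
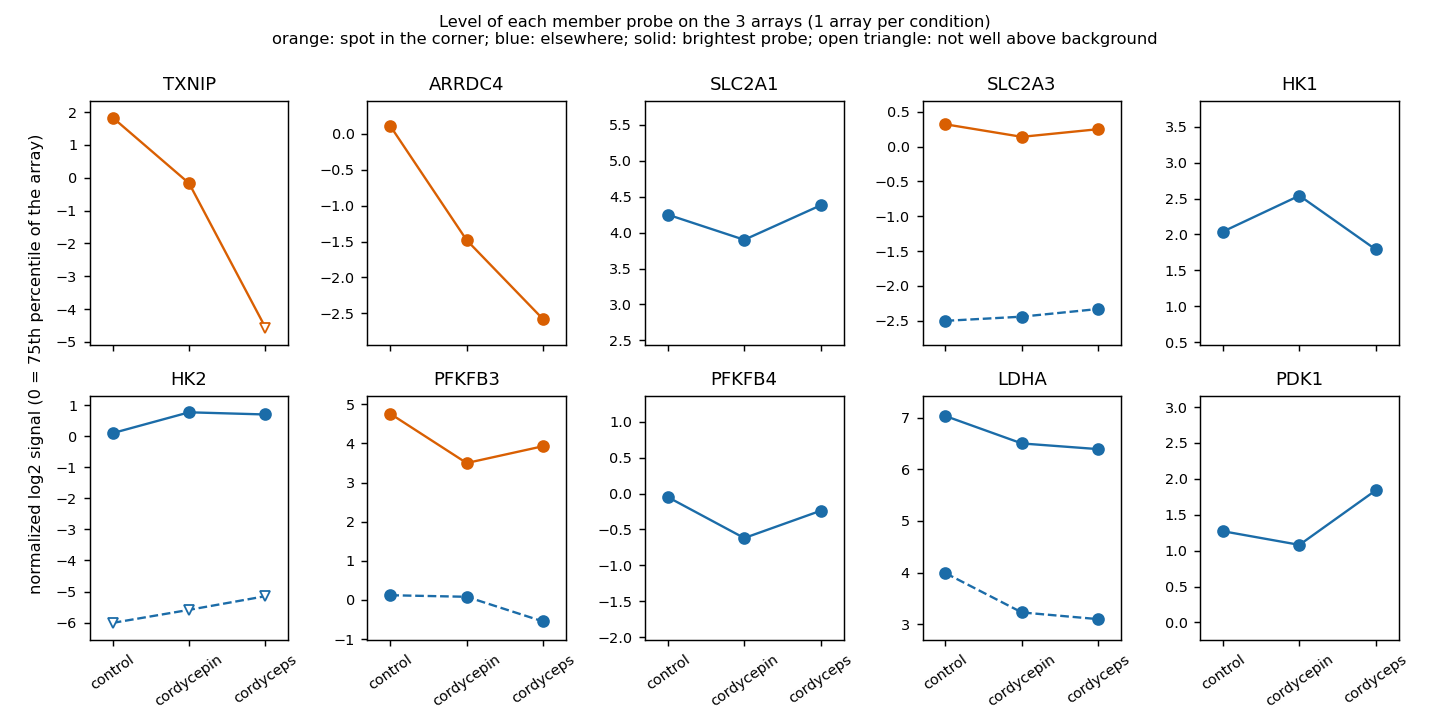
Normalized log2 signal (0 is the 75th percentile of the array) of each probe of the 10 genes on the control, cordycepin and cordyceps arrays, 1 array per condition, with a separate panel and vertical range for each gene. Orange marks spots in the corner, dashed lines the dimmer probe of a gene and open triangles signals not well above background; TXNIP and ARRDC4 are highest on the control array, and the brightest probes of the other genes span a narrower range.

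TXNIP, which restrains glucose uptake, showed the lowest ratio of the set with both treatments. Its single probe gave a signal of 924 ± 92.5 in the control, 200 ± 20.6 with cordycepin and 11.1 ± 7.6 with cordyceps, the last not well above background. On the normalized log2 scale these levels were 1.83, -0.17 and -4.56. Both treated arrays were below control, and the cordyceps array gave only an upper limit for this gene. TXNIP was 3.98-fold lower with cordycepin (log2 ratio -1.99 ± 0.21, from the spot errors of both arrays) and at least 26.8-fold lower with cordyceps. That bound was computed against the lowest signal of any detected probe on the cordyceps array (34.5, or -2.92 after scaling). It corresponds to a log2 ratio of -4.75 and depended on the processing. With another background correction it was -3.70. Before background subtraction by the software, the median pixel brightness of the spot was 1110, 284 and 87.5, over a local background of 44, 42 and 45, so the brightness around the spot was alike on the 3 arrays. The background of the spot was not marked as an outlier on any array.

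ARRDC4, the other glucose-induced α-arrestin, was also lower with both treatments. The signal of its single probe was 281 ± 28.4 on the control array, 80.4 ± 9.36 with cordycepin and 43.4 ± 8.72 with cordyceps, well above background on each. The log2 ratio was -1.59 ± 0.22 with cordycepin (3.01-fold lower) and -2.69 ± 0.32 with cordyceps (6.48-fold lower). Like TXNIP, ARRDC4 stood highest on the control array, and beyond the probe spread from control in both comparisons. Neither gene has a probe outside the corner, so no second spot measures them.

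The surroundings of these spots were therefore examined. Within 12 rows and 6 columns of the TXNIP spot, 123 other probes measured with cordyceps had a median log2 ratio of -0.10, and 4 were at least 2-fold lower and 4 at least 2-fold higher, over a range of -2.30 to 2.14. With cordycepin, 128 such neighbors ranged from -1.23 to 2.29, with 1 lower and 5 higher. Around ARRDC4, 132 neighbors with cordyceps had a median of -0.11, with 5 lower and 8 higher, and 145 with cordycepin had a median of -0.05, with 3 lower and 2 higher. These counts cover probes measured on both arrays, and none of them was as low as the ratio of the spot they surround. Further neighbors were detected on the control array and not on the treated one, 19 around TXNIP and 25 around ARRDC4 with cordyceps, and 14 and 12 with cordycepin. In each of these 4 cases 1 such neighbor had a bound past 2-fold, at -2.55 with cordyceps and -3.00 with cordycepin, the latter below the cordycepin ratios of TXNIP and ARRDC4. The neighborhoods of the TXNIP and ARRDC4 spots overlap, so some probes are counted around both and the cases are not separate.

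Over the whole corner, the share of probes at least 2-fold lower was close to that elsewhere. It was 3.12% in the corner and 3.59% outside it with cordyceps, and 3.78% and 3.67% with cordycepin. The raised share in the corner was that of higher ratios on the cordyceps array, whereas on the cordycepin array 6.45% of corner probes and 7.39% of the others were higher. Local background was marked as an outlier at 11.2% of corner spots on the cordyceps array, at 0.0% there on the other arrays and, outside the corner, at 3.16% on the cordyceps array. The part of the corner in the cordyceps values of TXNIP and ARRDC4 was not tested.

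**Figure D2:**
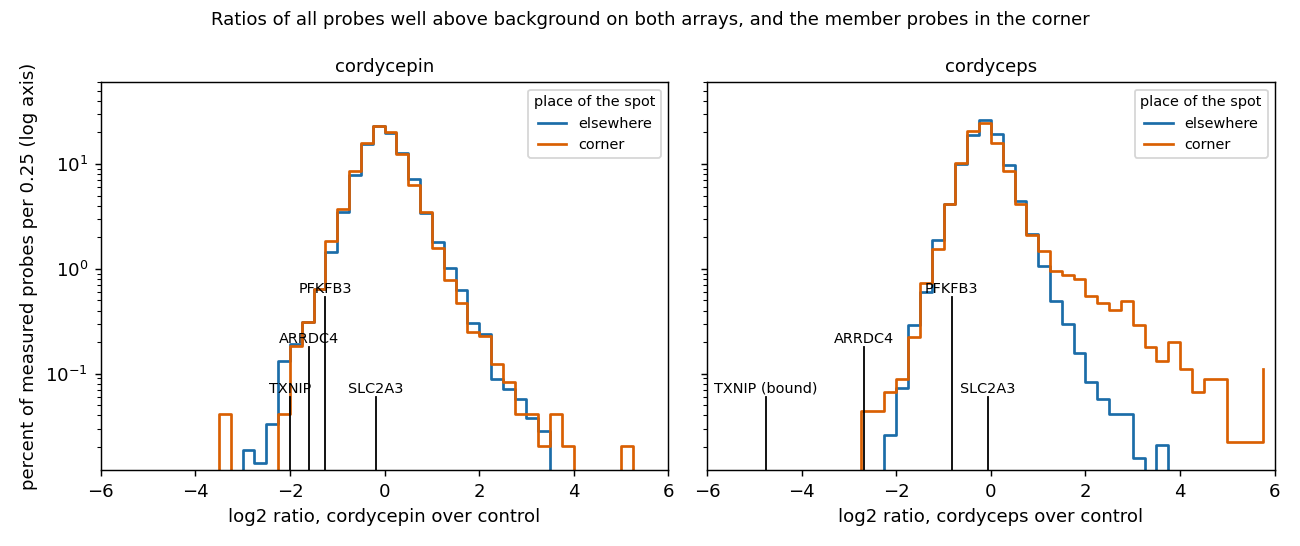
Distribution of log2 ratios over control for all probes well above background on both arrays, as the percent of probes per 0.25 log2 units on a log axis, in the corner (orange) and elsewhere (blue), with the probes of the set that lie in the corner as black lines. With cordyceps the corner has a tail of high ratios (the last step holds every ratio of 5.75 or more, 5 probes). The low side of the curves overlaps down to about -2 and rests on few probes below that. TXNIP is drawn at its bound, -4.75, below all measured probes.

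The glucose transporters differed little from control. SLC2A1 (GLUT1), the main basal glucose transporter of most cells and a cargo of TXNIP, gave signals of 4946 ± 495, 3337 ± 334 and 5423 ± 542 on the control, cordycepin and cordyceps arrays. Its log2 ratio was -0.35 ± 0.20 with cordycepin and 0.13 ± 0.20 with cordyceps, the latter within the probe spread. SLC2A3 (GLUT3), a high-affinity transporter, was within the probe spread of control in both comparisons on both of its probes. Its brighter probe read 326, 246 and 310, with log2 ratios of -0.19 and -0.07, and lies in the corner, where its background was marked as an outlier on the cordyceps array. In the neighborhood of that spot, 21 of 70 probes were at least 2-fold higher with cordyceps and 0 lower. The dimmer probe, outside the corner, read 45.9, 41.5 and 51.9, with log2 ratios of 0.07 and 0.18, so no direction is given for SLC2A3. SLC2A14 is a near-identical copy of SLC2A3, and sharing of signal between them was not tested.

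Among the hexokinases, which phosphorylate glucose on entry, HK2 was higher than control with both treatments without reaching 2-fold. Its brighter probe read 279 ± 28.4, 383 ± 38.7 and 424 ± 43.4, with log2 ratios of 0.67 ± 0.21 (1.59-fold) and 0.60 ± 0.21 (1.52-fold), the highest ratios of the set. Its second probe was not well above background on any array (4.03, 4.66 and 7.35) and gives no ratio. HK1, the constitutive hexokinase, read 1071 ± 107, 1308 ± 131 and 903 ± 90.6. Its log2 ratio was 0.50 ± 0.20 with cordycepin and -0.25 ± 0.20 with cordyceps, and the latter was 0.02 when arrays were scaled by their medians. HK1 thus stood above control with cordycepin, and its direction with cordyceps depended on the scaling.

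PFKFB3, the kinase-dominant producer of fructose 2,6-bisphosphate, was measured by a pair of probes that differed in the cordycepin comparison. The brighter probe, in the corner, gave 7052 ± 705, 2538 ± 254 and 3980 ± 398, a log2 ratio of -1.26 ± 0.20 with cordycepin (2.40-fold lower) and -0.83 ± 0.20 with cordyceps. The second probe, outside the corner, gave 282 ± 28.7, 236 ± 24.4 and 178 ± 20.3, with log2 ratios of -0.04 ± 0.21 and -0.66 ± 0.22. The probes lay on the same side of control with cordyceps, beyond the spread, whereas with cordycepin only the corner probe did. Both carry the same transcript accession, and which transcripts each detects was not tested. Around the corner spot, 118 neighbors had a median log2 ratio of -0.08 with cordycepin, 3 of them at least 2-fold lower and the lowest at -1.08, and of 16 more detected on the control array but not with cordycepin, 1 had a bound past 2-fold, at -1.79. PFKFB4, its paralog, gave 251 ± 25.5, 146 ± 15.6 and 220 ± 23.6, with log2 ratios of -0.57 ± 0.21 with cordycepin and -0.19 ± 0.21 with cordyceps, the latter within the probe spread and 0.08 under median scaling.

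LDHA, the lactate dehydrogenase subunit that favors lactate formation, was lower on both probes with both treatments, short of 2-fold. The brighter probe gave 33924 ± 3392, 20334 ± 2033 and 21853 ± 2185, with log2 ratios of -0.52 ± 0.20 and -0.64 ± 0.20. The second gave 4144 ± 414, 2102 ± 210 and 2233 ± 223, with log2 ratios of -0.77 ± 0.20 and -0.89 ± 0.20. All 4 values exceeded the probe spread, and neither spot is in the corner. PDK1, which inhibits pyruvate dehydrogenase and so holds pyruvate back from mitochondrial oxidation, gave 629 ± 63.0, 476 ± 47.8 and 930 ± 93.3. The log2 ratio of PDK1 was -0.19 ± 0.20 with cordycepin, within the spread, and 0.56 ± 0.20 with cordyceps.

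**Figure D3:**
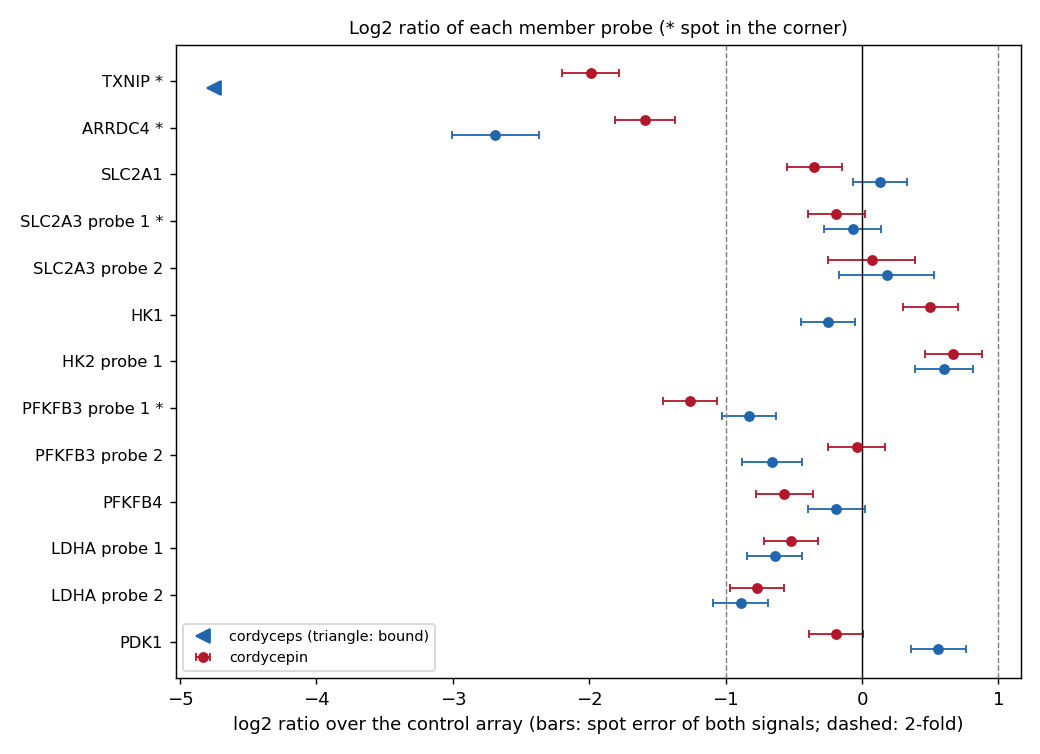
Log2 ratio over the control array of the 13 probes with a ratio, cordycepin in red and cordyceps in blue, with bars for the spot errors of both signals, an asterisk for spots in the corner and dashed lines at 2-fold. In all, 3 probes lie past the 2-fold line with cordycepin and 2 with cordyceps (TXNIP at its bound, a triangle), both probes of LDHA lie between 0 and the line, and HK2 lies above 0 in both comparisons.

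The calls nearest to the 2-fold threshold were PFKFB3 with cordycepin, at -1.26, inside it, and the second probe of LDHA with cordyceps, at -0.89, and PFKFB3 with cordyceps, at -0.83, outside it. With respect to the border of the corner, TXNIP, in column 89, was the closest inside the column limit of 82, and HK1, in column 60 of row 303, the closest outside it by column.

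The other genes of the pathway were followed on 12 lists of 108 genes, 107 of which had a probe. Over those lists 4 genes were at least 2-fold higher and 4 lower with cordycepin, and 5 higher and 4 lower with cordyceps. The median log2 ratio of those measured was -0.13 with cordycepin and -0.17 with cordyceps. Over all named genes with a ratio, the shares past 2-fold were the 6.01% higher and 3.61% lower with cordycepin, and 4.39% and 3.3% with cordyceps, given above. Nothing particular to the lists is read from their counts.

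The factors that regulate TXNIP and the glycolytic genes held 0 calls in either comparison among 7 genes (MLXIP, MLXIPL, MLX, MYC, HIF1A, EPAS1 and ARNT), all measured, with a median log2 ratio of 0.09 in each. MLXIP (MondoA), the glucose-sensing activator of TXNIP and ARRDC4, gave signals of 3215, 1474 and 3351 and log2 ratios of -0.91 with cordycepin and 0.06 with cordyceps. Its second probe, in the corner, gave 0.39 and 0.07, so with cordycepin the probes lay on opposite sides of control. MLX, the partner of MLXIP, gave -0.32 and 0.09 on its brighter probe and -0.16 and 0.22 on the other. MLXIPL (ChREBP), the liver-type relative, gave 0.09 and 0.10. MYC, an activator of glycolytic genes, stood at 0.00 and -0.08. HIF1A, the oxygen-regulated activator of glycolytic genes, gave 0.21 and 0.66 on its brighter probe and 0.19 and 0.17 on the other.

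No gene of the thioredoxin system and no measured α-arrestin other than TXNIP and ARRDC4 was at least 2-fold lower in either comparison. The thioredoxin system, 5 genes, held 0 calls, with medians of 0.17 and -0.17. TXN, the thioredoxin that TXNIP binds, gave 0.16 and -0.32, and TXNRD1, the cytosolic thioredoxin reductase, gave 0.62 and -0.17. Of the other α-arrestins 3 of 4 were measured, with medians of 0.02 and 0.09. ARRDC3, an adaptor for ubiquitination of surface receptors, read 111, 110 and 252, and was the only one called, at 1.19 with cordyceps, outside the corner. ARRDC1 gave 0.02 and -0.11, ARRDC2 -0.36 and 0.09, and ARRDC5 was not well above background on any array.

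Core glycolytic enzymes lay slightly below control as a group. With cordycepin 13 of the 15 measured on both arrays had a ratio below 0, with a median of -0.26 where that of all named genes was -0.05, and with cordyceps 14 of 15, with a median of -0.38 where that of all named genes was -0.11. Scaling by array medians moved the cordyceps median of the list to -0.11 and that of all named genes to 0.16. Most of these ratios were small: GAPDH gave -0.31 and -0.18, PGK1 -0.27 and -0.36, and ENO1 -0.12 and -0.34. PKM, the last enzyme of the pathway, read 31947, 25018 and 19504, with log2 ratios of -0.14 and -0.71. PFKL, the liver-type phosphofructokinase subunit, was the only core enzyme called with cordyceps, at -1.13, and gave -0.60 with cordycepin, while PFKM and PFKP gave -0.31 and -0.02 with cordycepin and -0.24 and -0.38 with cordyceps. ALDOC, the brain-type aldolase, was called higher with cordycepin. It read 315, 1007 and 244, with log2 ratios of 1.89 and -0.37. No probe was named ALDOA.

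At the branch to mitochondrial oxidation, PDK4 was called in both comparisons. This kinase of pyruvate dehydrogenase, induced by fasting, gave signals of 17562, 6870 and 8365 and log2 ratios of -1.14 and -1.07, outside the corner. It was the only call among 10 genes of the pyruvate dehydrogenase complex and its regulators, whose medians were -0.20 and -0.23. Of 8 genes of lactate and pyruvate handling 0 were called, with medians of -0.15 and -0.23, and the lactate exporter SLC16A3 gave -0.09 in each comparison.

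Other transporters and enzymes of sugar phosphates were mostly not called or not detected. Of 13 other glucose and hexose transporters 7 were measured in each comparison, with medians of -0.36 and -0.17, and 1 was called, the insulin-regulated SLC2A4, at least 2.60-fold higher with cordycepin at a signal of 41.7. The other hexokinases and the other fructose 2,6-bisphosphate enzymes held 0 calls. HKDC1, listed with the other hexokinases, gave 0.53 and 0.97 on the brighter of its 2 probes, at signals of 6540, 8162 and 12830.

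In the storage and branch pathways the calls were mostly with cordyceps. Among 14 genes of gluconeogenesis and glycogen, medians were -0.28 and -0.17. GYS2, the liver-type glycogen synthase, was called higher with cordycepin, at a signal of 203, and was not well above background on the other arrays. Its 11.9-fold ratio was taken to the undetected control signal of 19.8, so it is not a firm lower limit. With cordyceps, PCK2, the mitochondrial PEP carboxykinase, was at 1.12 on one probe and 0.31 on the other, UGP2, which makes UDP-glucose, was at 1.26, and PCK1, the cytosolic PEP carboxykinase, was at 4.79 in the corner, with signals of 32.6, 22.1 and 902. PCK1 lies among the corner probes with the raised share of high ratios described above, and it has no probe elsewhere. Among 9 genes of the pentose phosphate and hexosamine branches, GFPT1, the first enzyme of hexosamine synthesis, was the only call, at 1.34 with cordyceps in the corner and 1.45 on its probe outside it. The medians of that list were -0.24 and -0.22, and TKT, PGD and PGLS of the pentose phosphate pathway gave -0.69, -0.72 and -0.79 with cordycepin, none of them called.

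Hypoxia-responsive genes outside glycolysis, 13 in number, had medians of -0.24 and -0.18. CA9, the carbonic anhydrase that is a standard hypoxia marker, read 354, 100 and 89.5 and was lower in both comparisons, at -1.61 and -1.98. ANKRD37 gave -0.73 and -1.05, and CA12, another surface carbonic anhydrase, -1.12 and -0.37. EGLN3, an oxygen-sensing prolyl hydroxylase whose spot is in the corner, gave -1.16 and -0.94. With cordyceps 8 of the 13 genes lay below 0 and 5 above. Those below also included ADM at -0.53, NDRG1 at -0.41 and BNIP3 at -0.04. Those above included KDM3A at 0.72 and VEGFA at 0.98 on the brighter of its 2 probes.

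**Figure D4:**
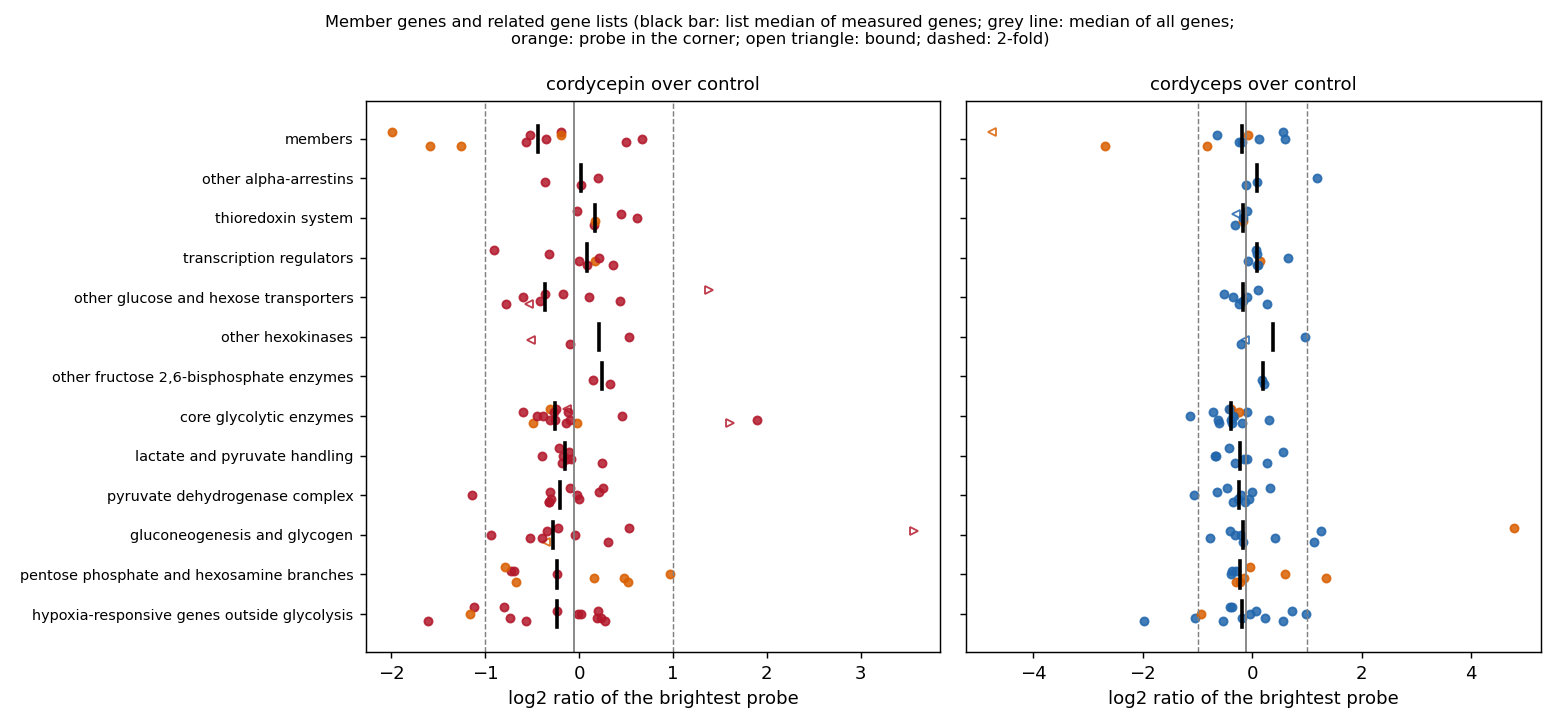
Log2 ratio over control of the brightest probe of each gene, with the 10 genes in the top row (labeled members) and the 12 related lists below, cordycepin on the left and cordyceps on the right. Black bars are list medians over genes measured on both arrays. The grey line is the median of all named genes (-0.05 and -0.11). Orange is the corner, open triangles are bounds and dashed lines mark 2-fold. TXNIP, ARRDC4 and CA9 lie at the low end of both panels, with CA9 (-1.61) next to ARRDC4 (-1.59) on the left. PCK1 at the high end of the right panel is a corner probe.

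The ratios of the 10 genes were recomputed with other scalings, background correction, spot filters and probe choices. With cordycepin TXNIP ranged from -2.26 to -1.79 over 8 alternatives of scaling, background correction, spot filter, value source and probe choice, and ARRDC4 from -1.86 to -1.03 over 10, which include the detection rules. With cordyceps the bound of TXNIP ranged from -4.75 to -3.70 and ARRDC4 from -2.70 to -1.66. Without a detection filter, the plain difference of the TXNIP levels with cordyceps was -6.38, outside that range, and it rests on a signal not well above background. LDHA stayed below 0 and HK2 above 0 in all 12 alternatives of both comparisons. SLC2A3 kept its sign in 10 of 12 with cordycepin and in 6 of 12 with cordyceps, and HK1 and PFKFB4 in 11 of 12 with cordyceps. For PFKFB3 with cordycepin the range, -1.52 to -0.04, included the value of its second probe.

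**Figure D5:**
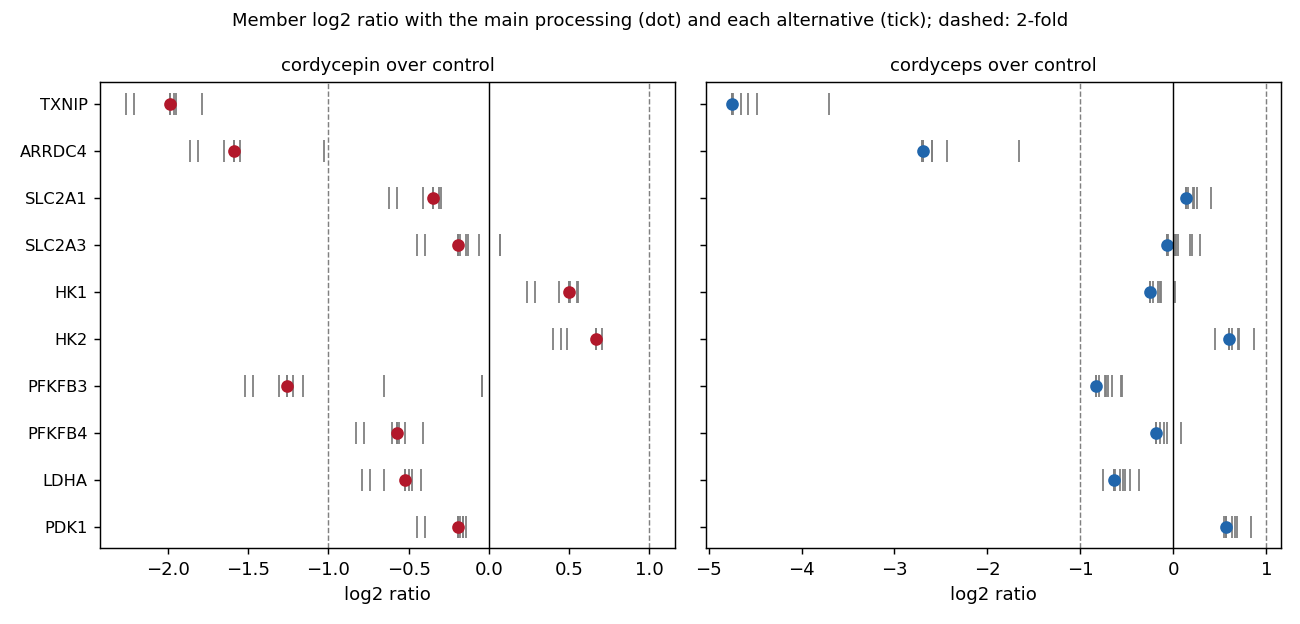
Log2 ratio of each of the 10 genes with the processing used throughout (dot) and with each alternative (tick), cordycepin on the left and cordyceps on the right, with different horizontal ranges. With cordycepin TXNIP and ARRDC4 stay below the 2-fold line, PFKFB3 reaches from past the line to near 0 (-1.52 to -0.04), and SLC2A3 spans 0; TXNIP with cordyceps is a bound at every tick.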

How the data were processed

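Total RNA of the 3 cultures was hybridized to Agilent one-color arrays, 1 per condition, on the same slide. The authors deposited the scanner output, whose intensity values were background-subtracted by Feature Extraction 11.5.1.1 and not scaled between arrays, and a value table that equaled the mean processed signal within 0.1% for at least 99.88% of 58201 rows. The text of the methods names Cy3 and Cy5, whereas the deposited files hold Cy3 intensity alone.

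Control and outlier spots were left out, log2 signal was reduced by the 75th percentile of each array, and spots of a probe were averaged, which left 58191 probes. Accessions were matched without versions to RefSeq, naming 31104 probes for 22435 genes. The array design uses GRCh37, so no probe coordinates are given. A difference was called at 2-fold, as a ratio between a pair of detected signals or, with 1 array detecting the probe, as a bound. The bound used the lowest detected signal of the other array, or the undetected signal itself where that was higher. The 10 genes, the lists and the rules were chosen with earlier results of these data known. Text outside the set names genes called on a list, detected genes of the regulator, thioredoxin, α-arrestin and core enzyme lists, a few others with their values seen, and the 5 genes closest to TXNIP. Some genes counted on the lists are not reported here by name. With 1 array per condition no test was run; precision is limited by that number of arrays. Scaling and the calling of measured ratios were tested on simulated data, which held no bounds and no effect of the corner. Alternatives were median, quantile or no scaling, the percentile over detected probes, normexp (offset 50, on the median spot signal, since the files used here hold no mean), other detection rules, outlier spots kept, the value table, other probe choices, the corner left out, and thresholds of 1.5-fold and 3-fold. Python 3.11.15, numpy 2.4.6, pandas 2.3.3, R 4.3.3 and limma 3.58.1 were used.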

Additional observations from a re-analysis of the deposited data

How the results depend on the processing

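No paired analysis was possible because the labels carry no replicate numbers and each condition has 1 array, and leaving out a replicate was not possible for the same reason. Without the corner, whether by taking the brightest probe outside it or by dropping it before scaling, the count of these genes at least 2-fold lower went from 3 to 0 with cordycepin and from 2 to 0 with cordyceps, since TXNIP and ARRDC4 have no other probe and the second PFKFB3 probe gave -0.04. Requiring detection on both arrays left 1 lower with cordyceps, ARRDC4. A threshold of 1.5-fold gave 4 lower with cordyceps (PFKFB3 and LDHA added) and 1 higher with each treatment, HK2. The TXNIP bound with cordyceps moved from -4.75 to -4.48 with median scaling and to -3.70 with normexp; the cause of the latter was not tested. The core glycolytic median with cordyceps moved from -0.38 to -0.11 with median scaling, which shifted the median of all genes by 0.27 there and by -0.26 with cordycepin. No called value changed sign among the alternatives run, and of the values of single genes 209 moved by less than the spread and 19 by more. Signals near background, as for TXNIP with cordyceps, carry only a bound.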

Other observations

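The genes whose ratios lay closest to those of TXNIP were listed among 11246 named genes detected on all 3 arrays with their brightest probe outside the corner, by Euclidean distance over the log2 ratios of both comparisons, with TXNIP at its bound for cordyceps. BCAS1 was closest, at a distance of 2.27, with log2 ratios of -0.51 with cordycepin and -3.02 with cordyceps and signals of 574, 348 and 70.7 on the control, cordycepin and cordyceps arrays. MTMR8, a myotubularin-related phosphatase family member, followed at 2.41, with ratios of -2.05 and -2.34 and signals of 215, 44.9 and 42.5. RNA5-8SN5, a 5.8S ribosomal RNA copy, lay at 2.67, with ratios of -0.32 and -2.67. CA9 lay at 2.79, with ratios of -1.61 and -1.98, and PDZK1, a scaffold of membrane transporters, at 2.86, with ratios of -1.02 and -2.05. CA9 is the only one of these also on a list above. Nothing about shared function or control follows from this order.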
